A study of Mus musculus with 3 samples.

Results

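Cytosolic ribosomal protein genes encode the protein part of the ribosome outside the mitochondrion, and they were examined here for HIF1α peaks in the embryonic mouse heart. They were chosen by symbol from the RefSeq protein-coding genes of the mm10 build: Rpl or Rps followed by a digit, without the Rps6k kinases, plus Rplp and Rpsa. This gave 91 of 21779 nuclear protein-coding genes, of which 56 belong by symbol to the large subunit and 35 to the small subunit. They include 2 matches whose products are not ribosomal subunits (Rps19bp1 and Rps23rg1) and 10 paralogs with an l, l1 or rt ending. Rpl31-ps12 and Rpl34-ps1 are also among them, since the table lists them as protein-coding in spite of pseudogene symbols, and neither has a peak within 5 kb. The symbol rule itself uses no measured value.

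HIF1α binding was profiled by ChIP-seq, the sequencing of DNA precipitated with an antibody, in wild-type hearts of Black-Swiss mouse embryos at E12.5. There were 2 replicate pulldowns with a rabbit antibody against HIF1α and 1 input of the same stage, strain and genotype, with no antibody. No embryos that lack HIF1α and no treatment are among the samples, and the labels do not say whether the replicates were separate pools of hearts. The authors deposited 1 merged list of 17289 peaks. Each peak has a whole-number score given by the authors, with a lowest value of 2 and a median of 2. Each peak name ends in 1 or 2, read here as the number of merged calls: 1989 peaks (11.5%) have 2 calls and 15300 have 1. The replicate behind a single call is not marked and the read depth is unknown. The values below therefore carry no replicate error, and no test was run. Peaks report chromatin and not RNA, so the tissue label was not checked against marker expression.

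Ribosomal proteins are made in equal amounts from genes scattered over the genome, and joined to ribosomal RNA in the nucleolus to form a small subunit that decodes mRNA and a large subunit that links amino acids. Building ribosomes is among the most costly activities of a growing cell. Their mRNAs start with a pyrimidine tract (TOP mRNAs) through which mTORC1, a kinase that senses nutrients and energy, controls their translation. HIF1α is the subunit of the hypoxia-inducible factor that is degraded in the presence of oxygen, and it binds a short core sequence next to its partner ARNT.

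The first question was how many of these genes lie next to a HIF1α peak. Of the 91 genes, 32 (35.2%, exact 95% Clopper-Pearson interval 25.4 to 45.9%) lay with an end no more than 1 kb from a peak centre, against 16.2% of the 21688 other protein-coding genes. A peak of 2 calls lay within 1 kb of 11 genes (12.1%, interval 6.19 to 20.6%), against 5.51% of other genes. Within 5 kb the counts were 39 genes (42.9%) with any peak, against 23.9% of other genes, and 14 genes (15.4%) with a peak of 2 calls, against 7.69%. Within 50 kb the difference for any peak was smaller in percentage points: 68 genes (74.7%) had one, against 63.5%. For peaks of 2 calls that difference did not shrink: 28 genes (30.8%) had one within 50 kb, against 21%. For any peak, the excess over other genes was thus larger close to gene ends than within 50 kb. Intervals cover counting error over genes only, and genes are not replicates.

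The genes ranged from those with a peak at the gene to those whose nearest peak was distant. The distance to the nearest peak was under 1 kb for 32 genes, 1 to 5 kb for 7, 5 to 50 kb for 29 and over 50 kb for 23, of which 11 were over 100 kb away. At the 1 kb limit, the genes on either side were Rps29 (574 bp) and Rpl22 (1246 bp). At 5 kb they were Rps27rt (4030 bp) and Rpl23a (5924 bp), and at 50 kb Rpl3 (49640 bp) and Rpl35 (51195 bp). Few genes therefore stood near the 1 kb limit. Other protein-coding genes also ranged widely: 16.2% had a peak within 1 kb, 23.9% within 5 kb and 63.5% within 50 kb.

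**Figure D1:**
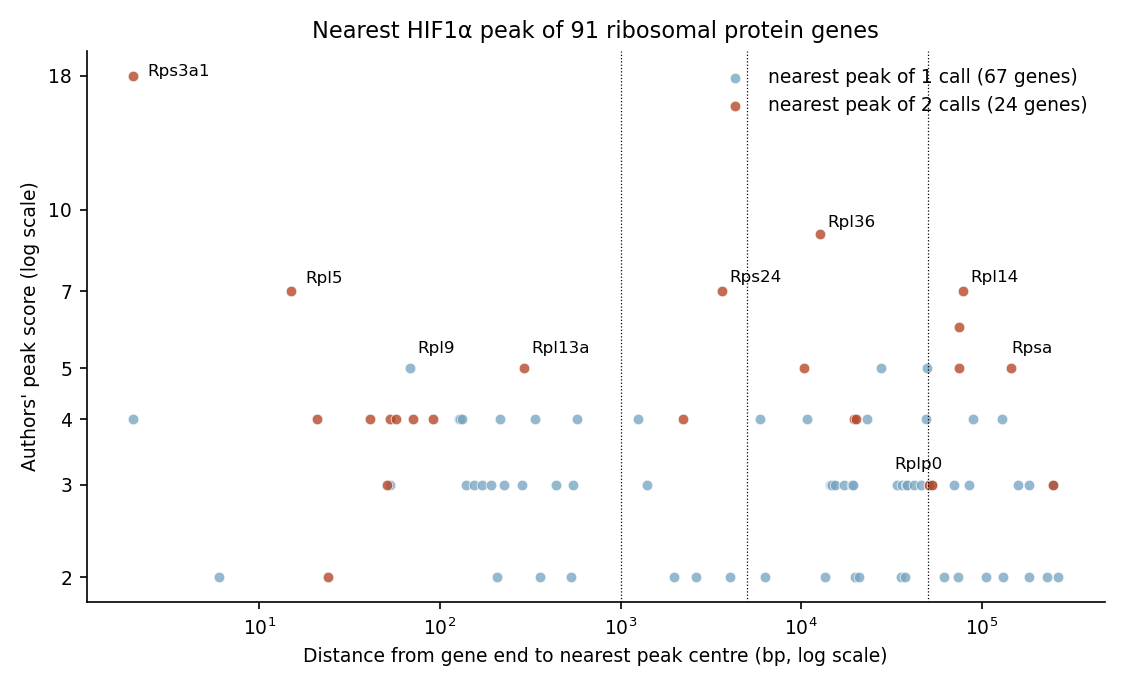
Distance in bp from the nearer gene end to the nearest HIF1α peak centre (x axis, log scale) against the authors' score of that peak (y axis, log scale) for the 91 genes. Points are genes, coloured by the number of merged calls, and dotted lines mark 1, 5 and 50 kb. Rps3a1, with a score of 18 at 2 bp, stands above all others, and most genes within 1 kb have scores of 2 to 4.

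Peaks of 2 calls sat at the starts of a small set of genes from both subunits. Rps3a1, which encodes a small-subunit protein, had by far the highest score: 18, in a peak on chromosome 3 from 86142609 to 86142723, centred 2 bp inside the gene. In the whole list 77 peaks score 18 or more, and 1.08% of the other genes with a peak within 1 kb have a best score that high. The next protein-coding gene end, that of Sh3d19, was 12140 bp from this peak.

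Among large-subunit genes with a peak within 1 kb, Rpl5 came first with a score of 7 in a peak 15 bp outside the gene (chromosome 5, 107900443 to 107900544). Its product binds 5S ribosomal RNA together with that of Rpl11, and the free pair can bind MDM2, the regulator of p53. Rpl11 held a single-call peak of score 4 inside the gene at 336 bp (chromosome 4, 136053007 to 136053107). Both genes of this 5S particle were thus within 1 kb of a peak, 1 of them with 2 calls.

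Rpl13a, whose product also serves in translational silencing of inflammatory transcripts, carried a 2-call peak of score 5, located 291 bp upstream (chromosome 7, 45128983 to 45129090).

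The remaining peaks of 2 calls within 1 kb had scores of 2 to 4. Rpl10a, whose protein forms the mobile L1 stalk, had one of score 4 at 21 bp (chromosome 17, 28328436 to 28328549). Rps20 had a score of 4 at 41 bp, Rpl27 a score of 4 at 53 bp, Rps16 a score of 4 at 71 bp and Rpl34 a score of 4 at 92 bp. Rps7, whose product takes part in early processing of small-subunit RNA, had a score of 3 at 51 bp. Rpl7l1, a paralog of Rpl7, had a score of 2 at 24 bp and 2 more peaks of 1 call within 5 kb.

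At Rpl18 the position relative to the start differed from the others. Its peak of 2 calls (score 4) lay 57 bp from the gene boundary but 2661 bp upstream of the annotated start in the promoter table. A peak of 1 call with the same score lay 118 bp upstream of that start, and 49 bp from an end of the neighbour Sphk2. The peaks of 2 calls at Rpl24 and Rps24 were likewise not at their starts. The peak near Rpl24 (score 4) lay 2206 bp past its 3' end, and equally far from an end of the neighbour Zbtb11. The peak near Rps24 (score 7) lay 3622 bp upstream, and 14 bp from an end of Polr3a, which encodes the largest subunit of RNA polymerase III. Farther out, the nearest peak of Rpl36 had 2 calls and a score of 9 but lay 12665 bp away.

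Sequences are shown for the 6 genes with the highest-scoring peaks of 2 calls that overlap a RefSeq promoter window (equal scores taken by distance to the gene end), so that the bases at the peak can be read. Each is the stretch of 250 bases just before the annotated start on GRCm38.p6 (mm10), 5′ to 3′ on the strand of the gene. Capitals mark the HIF core, ACGTG or GCGTG on either strand.
Rps3a1: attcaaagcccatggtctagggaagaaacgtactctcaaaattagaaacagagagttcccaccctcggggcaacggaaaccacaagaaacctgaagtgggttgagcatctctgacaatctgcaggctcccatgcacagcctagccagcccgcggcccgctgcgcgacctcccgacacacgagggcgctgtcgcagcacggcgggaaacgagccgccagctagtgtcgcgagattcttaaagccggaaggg
Rpl5: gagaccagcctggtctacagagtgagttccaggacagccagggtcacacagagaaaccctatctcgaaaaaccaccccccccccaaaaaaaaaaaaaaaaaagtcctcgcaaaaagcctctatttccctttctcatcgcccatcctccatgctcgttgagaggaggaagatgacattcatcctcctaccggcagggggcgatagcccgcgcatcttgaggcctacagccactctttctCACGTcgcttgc
Rpl13a: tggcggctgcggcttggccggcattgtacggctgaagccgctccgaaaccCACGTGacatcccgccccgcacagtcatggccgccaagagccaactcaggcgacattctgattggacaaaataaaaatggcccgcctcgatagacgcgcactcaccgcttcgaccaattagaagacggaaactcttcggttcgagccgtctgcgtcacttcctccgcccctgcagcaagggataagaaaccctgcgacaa
Rpl10a: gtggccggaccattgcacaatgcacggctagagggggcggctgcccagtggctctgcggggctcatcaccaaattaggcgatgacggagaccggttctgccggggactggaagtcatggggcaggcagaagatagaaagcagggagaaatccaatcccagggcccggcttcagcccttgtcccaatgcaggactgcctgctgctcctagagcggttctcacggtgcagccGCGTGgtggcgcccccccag
Rpl27: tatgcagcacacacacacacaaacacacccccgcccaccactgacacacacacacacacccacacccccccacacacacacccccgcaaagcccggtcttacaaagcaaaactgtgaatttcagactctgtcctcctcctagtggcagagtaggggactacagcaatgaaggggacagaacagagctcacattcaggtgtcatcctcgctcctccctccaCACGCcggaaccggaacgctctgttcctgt
Rps16: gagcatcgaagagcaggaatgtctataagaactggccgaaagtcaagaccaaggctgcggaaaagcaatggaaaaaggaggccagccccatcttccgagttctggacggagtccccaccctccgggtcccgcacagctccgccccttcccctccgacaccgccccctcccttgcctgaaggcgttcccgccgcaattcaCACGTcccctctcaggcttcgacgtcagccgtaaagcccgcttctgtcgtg
These stretches lie at chr3:86142669-86142918 (minus strand, Rps3a1), chr5:107900278-107900527 (plus, Rpl5), chr7:45128746-45128995 (minus, Rpl13a), chr17:28328221-28328470 (plus, Rpl10a), chr11:101441995-101442244 (plus, Rpl27) and chr7:28350439-28350688 (plus, Rps16).

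In 3 of the 6 genes a marked core lay under the peak itself. The core of Rpl5 began 12 bases before the start, under a peak that reached from 85 bases upstream to 16 bases past the start. The core of Rpl10a began 20 bases before the start and that of Rps16 began 51 bases before it, both under their peaks. In Rpl27 the core began 30 bases upstream, whereas the peak began 11 bases upstream. In Rpl13a the 2 overlapping cores form a palindromic CACGTG about 200 bases upstream, between the start and a peak that spans 345 to 238 bases upstream. Rpl34, with the same score of 4 as the last 3 shown, had its CACGTG beginning 155 bases upstream, under the peak, and Rps7 (score 3) had a core 95 bases upstream, also under it. Over all 9 genes with such an overlapping peak, 5 had a core under it before the start. Cores under peaks were not counted for other genes, so this count cannot be called particular to ribosomal protein genes. Either core occurred anywhere in a promoter window of 88.9% of ribosomal genes with a start within 1 kb of a peak of 2 calls. It occurred in 64.4% of those with no peak that near. Among other genes these shares were 79.4% and 47.9%. Rps3a1 had no core in the stretch shown, but ACGTG occurred 15 bases past its start, under the peak. A match is a description of the letters and not a measured binding site.

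Peaks of 1 call made up the rest. The nearest peak was of 1 call at 21 of the 32 genes within 1 kb, with scores of 2 to 5. Rpl35a had the closest, a score of 4 at 2 bp (chromosome 16, 33056401 to 33056501), followed by Rps21 with a score of 2 at 6 bp. Rps19bp1, which encodes a protein that binds RPS19 and not a subunit, had a score of 3 at 53 bp. Rps26 had 2 peaks of 1 call upstream, with a score of 4 at 128 bp and a score of 3 at 396 bp. Of the 32 genes, 29 had a single peak within 1 kb.

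At 5 of the 32 genes every peak within 1 kb lay closer to another protein-coding gene, so the peak cannot be assigned to the ribosomal gene by position. Rpl9 (score 5 at 68 bp) is 1 of them, since the peak was 2 bp from an end of Lias, a gene for lipoic acid synthesis. At Rps27 (score 4 at 130 bp) the peak was 63 bp from Rab13, and at Rps18 (score 3 at 191 bp) it was 77 bp from Vps52. At Rplp2 (score 3 at 438 bp) it was 352 bp from Pidd1. At Rpl3l, a paralog of Rpl3 made in striated muscle, the peak (score 3, 1 call) was 227 bp from its 3' end and 223 bp from Msrb1. None of these 5 had a peak of 2 calls within 1 kb.

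The scores at these genes were modest. The highest score within 1 kb had a median of 4 over the 32 genes with a peak, against 3 over the 3507 other genes with one, and it was 4 at 13 of the 32. It was 4 or more at 17 of all 91 genes (18.7%), against 7.84% of other genes. At a score of 5 or more the count was 4 of 91 (4.4%), namely Rps3a1, Rpl5, Rpl13a and Rpl9, against 3.82% of other genes. At 7 or more it was 2 of 91 (2.2%), against 1.34%. The share of genes at the higher scores was thus close to that of other genes, and the excess lay at scores of 4 or below. Among genes within 1 kb of a peak, the share with a peak of 2 calls was 34.4% for ribosomal protein genes and 34.1% for other genes.

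**Figure D2:**
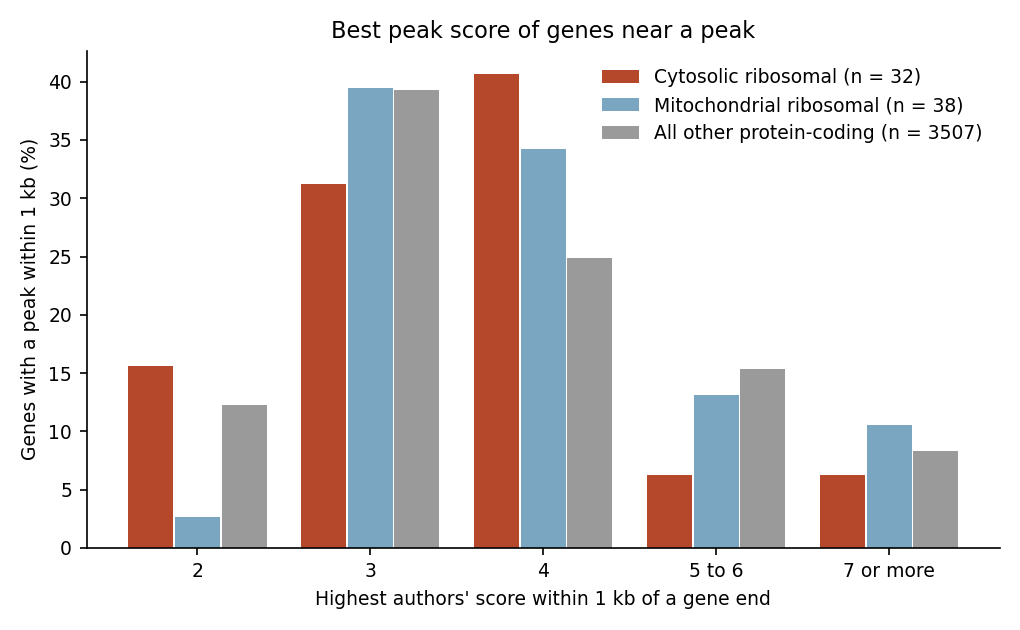
Highest authors' score within 1 kb of a gene end (x axis) and the share of genes with a peak within 1 kb that have it (y axis, percent), for cytosolic ribosomal, mitochondrial ribosomal and all other protein-coding genes. The most frequent score was 4 for the cytosolic ribosomal genes (40.6% of 32) and 3 for all other genes (39.3% of 3507).

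Peaks within 1 kb lay at the 5' end almost without exception. The RefSeq promoter table gives strand and start for 70 of the 91 genes. Of 26 pairs of a gene and a peak within 1 kb of its boundary that have a strand, 25 were nearer the 5' end and 1, at Rpl3l, nearer the 3' end. Of the 25, 16 were centred upstream of the nearest annotated start and 9 at or past it. The median distance to the start was 128 bp, and 12 of the 25 lay within 100 bp. The share at the 5' end was not counted for other genes. Measured from the nearer gene end, the median distance was 131 bp over the 32 ribosomal genes near a peak. It was 146 bp over the 3507 other genes near a peak. Within 100 bp of a peak lay 43.8% and 39.1% of them.

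Counting from annotated starts in place of gene ends brought in 2 more genes. Rpl22 had peaks 44 bp upstream and 86 bp downstream of an annotated start (scores 4 and 3, both of 1 call), inside the gene boundary as the table gives it. Rps27l, a paralog of Rps27 whose gene is a target of p53, had a single-call peak of score 3 located 70 bp upstream of a start. In all, 25 of the 70 genes (35.7%) had a start within 1 kb of a peak, against 16.5% of 17422 other genes with an entry. For peaks of 2 calls the count was 9 of 70 (12.9%), against 5.69%.

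**Figure D3:**
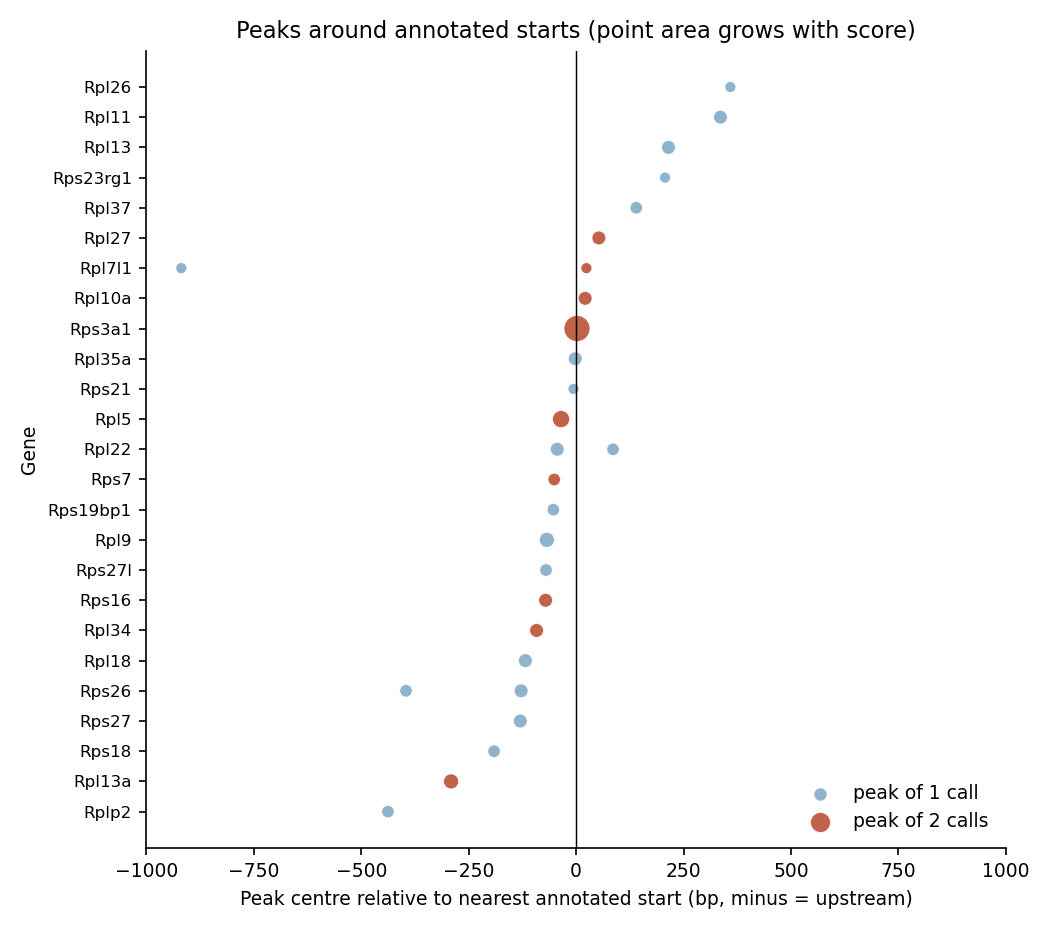
Position in bp of each peak centre relative to the nearest annotated start (x axis, upstream is negative) for the genes with a peak within 1 kb of a start (y axis, 1 gene a line). Points are peaks, coloured by number of calls, with an area that grows with the score. The nearest peak of most genes lies close to the start, on either side of it.

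Well-known members differed widely from each other. Rps6, whose protein is the substrate of S6 kinase, had its nearest peak 41968 bp away (score 3, 1 call). Rps19, the gene most often mutated in Diamond-Blackfan anaemia, a failure of red cell production, had its nearest peak at 14519 bp (score 3, 1 call). For Rps14, lost in the 5q- syndrome, the nearest was at 69836 bp. Rpl38, which is needed for translation of Hox mRNAs, had none nearer than 157926 bp, and Rpsa, known also as the laminin receptor precursor, none nearer than 145711 bp. Rpl22l1, the paralog of Rpl22, had none nearer than 183281 bp. The stalk genes that recruit elongation factors also differed: Rplp2 had the peak described above, Rplp1 had its nearest at 6268 bp and Rplp0 at 52835 bp.

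Grouped by role, the subunits were alike in their counts. Within 1 kb of a peak lay 19 of 56 large-subunit genes (33.9%) and 13 of 35 small-subunit genes (37.1%), and within 1 kb of a peak of 2 calls lay 7 and 4 of them. For the groups below, the share within 1 kb of a peak was 35.2% over all 91 genes and 16.2% over other protein-coding genes. For peaks of 2 calls these shares were 12.1% and 5.51%. Of 17 genes mutated in Diamond-Blackfan anaemia, 9 (52.9%) had a peak within 1 kb. The interval, 27.8 to 77%, includes the share of all 91 genes. Of the 17, 4 (23.5%) had one of 2 calls (Rpl5, Rpl18, Rpl27 and Rps7). Of 9 genes whose proteins line the exit of the peptide tunnel, 1 (11.1%) had a peak within 1 kb (Rpl26, score 2 at 359 bp). Of the 8 paralogs on a fixed list, 2 (25%) did (Rpl7l1 and Rpl3l). These groups are small, and differences between them were not tested.

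Many ribosomal protein genes carry small nucleolar RNA (snoRNA) genes in their introns, which guide the modification of ribosomal RNA. The table places 59 snoRNA genes inside 30 of the 91 genes. Of these 30 hosts, 12 (40.0%, interval 22.7 to 59.4%) had a peak within 1 kb and 5 (16.7%) had one of 2 calls. Of the 61 genes without a snoRNA gene, 20 (32.8%, interval 21.3 to 46%) had a peak and 6 (9.84%) had one of 2 calls. Over other protein-coding genes the shares were 16.2% and 5.51%. The intervals of hosts and non-hosts overlap widely, and the difference was not tested. Rpl13a held 4 snoRNA genes, Rpl5 held 3, and Rps3a1, Rps16 and Rps20 held 1 each. Rpl4, with 5 snoRNA genes, had no peak nearer than 74622 bp.

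By chromosome, the counts within 1 kb ranged from 3 of 3 genes on chromosome 8 to none on chromosomes 1 (0 of 3), 13 (0 of 1), 14 (0 of 2), 18 (0 of 2) and X (0 of 4). Chromosome 7 had 6 of its 14 genes near a peak and chromosome 9 had 1 of 8. Over all chromosomes, 16.2% of other protein-coding genes had a peak within 1 kb. Their shares on each chromosome were not counted, so these small counts cannot be called particular to ribosomal protein genes. The nearest peaks of the X-linked genes were 13.5 kb (Rpl36a), 20.8 kb (Rpl10), 231 kb (Rps4x) and 265 kb (Rpl39) away, all with a score of 2 and 1 call.

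Promoters of these genes resembled those of other genes with peaks in CpG ratio. The CpG ratio, the number of CG pairs over that expected from base content, had a median of 0.859 over the 70 genes (the highest value of each gene's windows). It was 0.608 over other genes and 0.836 over the other genes whose start lay within 1 kb of a peak. The median GC content was 57.8%, 57.3% and 62.7% in the same order. The CpG ratio moved with the share of genes near a peak. Among other genes with a CpG ratio in the middle 50% of the ribosomal genes' values (0.683 to 0.994), 25.9% had a peak within 1 kb of a gene end, and 8.63% had one of 2 calls. The ribosomal genes in that range gave 10 of 34 (29.4%, interval 15.1 to 47.5%) and 5 of 34 (14.7%). For any peak the share of other genes lies inside that wide interval. This comparison was added after the values were seen. Over the full CpG range of the ribosomal genes, 18.6% of other genes had a peak and 6.22% one of 2 calls, against 24 of 70 (34.3%) and 14.3% of the ribosomal genes. Over their range of gene lengths (374 to 16779 bp) these shares were 14.6% and 4.9%. The part of promoter composition in the result was not tested.

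Motifs were searched on both strands in windows of 250 bases before to 50 bases after each start, and a gene was counted if any of its windows held the letters. The core ACGTG was found in 6 of the 9 ribosomal genes with a start within 1 kb of a peak of 2 calls (66.7%). These are Rps3a1, Rpl5, Rpl10a, Rpl13a, Rps16 and Rpl34. It was found in 4 of 16 genes with peaks of 1 call alone (25%) and in 10 of 45 with no peak (22.2%). Among other genes the shares were 48.3%, 31.4% and 20.4% in the same order. GCGTG showed no such order in the ribosomal genes, at 44.4%, 62.5% and 60.0%, whereas among other genes it was at 65.0%, 59.9% and 37.3%. The E-box CACGTG, which contains ACGTG on both strands, occurred in 2 of the 9 genes (Rpl13a and Rpl34), none of the 16 and 4 of the 45. Among other genes it was at 15.9%, 12.6% and 7.97% in the same order. Over all genes with a promoter entry it was in 8.57% of ribosomal and 8.91% of other genes.

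Other motifs differed in how their counts split between genes with and without a peak. The ETS core CCGGAAG was in 26 of 70 ribosomal genes (37.1%), against 12.9% of other genes. It was in 11 of the 25 near a peak and 15 of the 45 without one. Among other genes it was in 23.6% of those with a start within 1 kb of a peak and 10.7% of those without. The YY1 core AAGATGG was in 8 of the 25 near a peak (Rpl7l1, Rpl13a, Rpl22, Rpl35a, Rps7, Rps16, Rps26 and Rps27) and in 2 of the 45 without one. Its share was 10.8% of other genes with a start within 1 kb of a peak and 6.43% of those without. The SP core GGGCGG was in 41 of 70 (58.6%), against 49.2%, and GCATGCGC (NRF1) in 3 of 70 (4.29%), against 3.94%. TATAAA was in 1 of the 25 near a peak and 8 of the 45 without one, and CCAAT in 7 and 15. Among other genes near a peak and without one, TATAAA was in 7.94% and 16.2%, and CCAAT in 40.3% and 42.8%. The counts in each class are small, and the genes share a family, so these are descriptions.

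**Figure D4:**
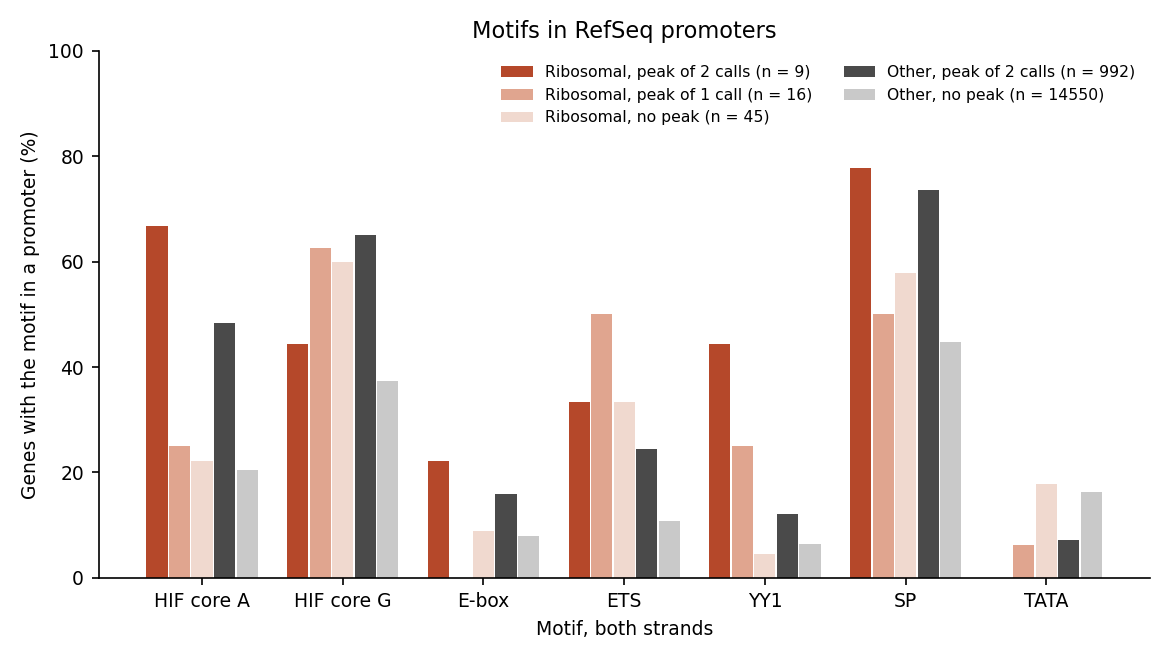
Share of genes (y axis, percent) whose RefSeq promoter window holds each motif on either strand (x axis; HIF core A is ACGTG and HIF core G is GCGTG). Bars are ribosomal protein genes and other genes, split by the peaks within 1 kb of a start. ACGTG is at 66.7% in the 9 ribosomal genes with a peak of 2 calls and 22.2% in the 45 with none.

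Other genes that make or complete ribosomes were counted by the same rule, and several lists lay at similar shares for any peak. For peaks of 2 calls, the polymerase I and assembly lists below lay near the 5.51% of other protein-coding genes. Mitochondrial ribosomal proteins, which build the separate ribosome of that organelle, were within 1 kb of a peak in 38 of 78 cases (48.7%, interval 37.2 to 60.3%). A peak of 2 calls lay within 1 kb of 20 of the 78 (25.6%), against 11 of 91 (12.1%) for the cytosolic genes. This difference was not tested. Closest were Mrpl42 (score 4 at 2 bp), Mrpl21 (score 5 at 3 bp) and Mrpl30 (score 4 at 6 bp).

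Of 15 genes for RNA polymerase I, which transcribes ribosomal RNA, and its factors, 6 (40.0%) had a peak within 1 kb. A peak of 2 calls lay within 1 kb of 1 of them (6.67%). The closest were Cd3eap (score 4 at 52 bp), Taf1c (score 3 at 64 bp) and Ttf1 (score 2 at 108 bp). Of 35 genes for ribosome assembly factors, 11 (31.4%) had a peak and 2 (5.71%) one of 2 calls. Pes1 (score 4 at 36 bp), Riok2 (score 3 at 75 bp) and Utp20 (score 3 at 126 bp) were closest. Of 16 genes for elongation factors and other TOP mRNAs, 6 (37.5%) had a peak and 2 one of 2 calls, among them Eif3e (score 3 at 61 bp), Eif3h (score 3 at 83 bp) and Eef1b2 (score 4 at 163 bp, 2 calls). Of 8 genes of the snoRNA-guided modification complexes, 2 had a peak within 1 kb, Gar1 (score 3 at 96 bp) and Fbl (score 3 at 180 bp, 2 calls). Nop10 had its nearest at 2843 bp.

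Fau and Rack1 encode ribosomal proteins whose symbols the rule does not match. Fau carried a 2-call peak of score 6, located 1 bp from its end. Rack1 had its nearest peak at 17708 bp. Pseudogenes with ribosomal protein symbols ending in -ps, most of which arose as copies of mRNAs without the parent promoter, were counted as well. Of 304, 2 (0.658%) had a peak within 1 kb, both with a score of 2, and none had a peak of 2 calls within 5 kb. The exact interval of that last share reaches 1.21%. Other pseudogenes gave 1.72% within 1 kb, and 0.638% for peaks of 2 calls within 5 kb. Sequence shared between ribosomal protein genes and their pseudogenes can affect where reads are placed, and read placement was not examined.

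**Figure D5:**
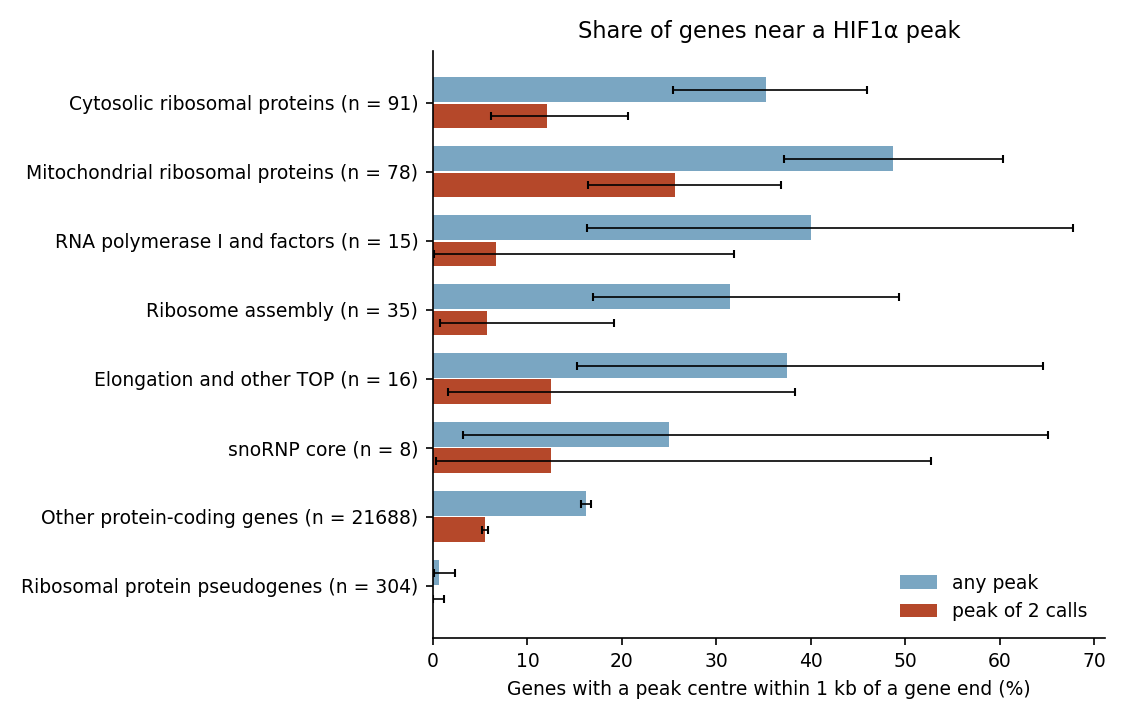
Share of genes (x axis, percent) with a HIF1α peak centre within 1 kb of a gene end, for the cytosolic ribosomal protein genes, related lists, other protein-coding genes and ribosomal protein pseudogenes (y axis, with the number of genes). Bars are shares for any peak and for peaks of 2 calls, with exact 95% Clopper-Pearson intervals. The cytosolic genes stand at 35.2% and 12.1%, between other protein-coding genes (16.2% and 5.51%) and mitochondrial ribosomal genes (48.7% and 25.6%).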

How the data were processed

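Cross-linked E12.5 heart chromatin was sheared to an average of 200 bp, and 4 μg of antibody was used per pulldown (per the labels' protocols). The submitters' processing notes name Bowtie2, HOMER and mm10 without versions. Per the file headers, the deposited list joins peaks from pulldown 1 and pulldown 2, both compared with the input. How peaks were thresholded, merged and scored is not given in the sources used here. The deposited score was used only within the list.

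Gene positions came from a RefSeq table of GRCm38.p6, the build of mm10, and promoter sequences from RefSeq on the same build. After 357 genes without a usable position were left out, a gene was near a peak when the peak centre lay within the window of either end. Positions were not resolved into exon, intron or UTR. Counts, medians and exact Clopper-Pearson intervals were computed in Python 3.11.15 with pandas 2.3.3 and SciPy 1.17.1, and distances were tested on simulated data. No set test was run. The genes and lists were chosen with earlier results of these data known. Genes named are those with a peak of 2 calls within 5 kb, the 10 nearest, the 10 highest scores, those with 2 or more peaks within 5 kb, and a fixed set of well-known members. All 91 genes enter the counts, but a few that this rule would name are not reported here. Alternatives covered window, score, calls, overlap, annotated starts, shared peaks, paralogs and background.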

Additional observations from a re-analysis of the deposited data

How the results depend on the processing

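Of 35 alternative values, 21 stayed close to the reported value and 14 did not. For shares, close meant within the exact 95% interval of the reported value. For the median score it meant within the standard deviation of the scores over genes. Every alternative share of the other genes is among the 14, since their intervals are narrow (15.7 to 16.7% within 1 kb). The share of ribosomal protein genes near a peak depended most on which peaks were counted. With scores of at least 4 it was 18.7% within 1 kb, 23.1% within 5 kb and 42.9% within 50 kb, against 7.84%, 10.5% and 26.1% of other genes. With peaks of 2 calls alone it was 12.1%, 15.4% and 30.8%, against 5.51%, 7.69% and 21% of other genes. Counting a gene only where no other protein-coding gene was nearer to the peak gave 37.4% within 50 kb, in place of 74.7%, against 32.8% of other genes under the same rule. Within 1 kb that rule gave 29.7% against 14.1%, and within 5 kb 35.2% against 19.1%. The share of other genes within 1 kb was 14.6% in the length range of the ribosomal genes, 18.6% in their CpG range and 25.9% in the middle of that range, and for peaks of 2 calls 4.9%, 6.22% and 8.63%. Within 5 kb it was 22.3% in the length range. The middle CpG range, and all strata for peaks of 2 calls, were added after the data were seen. Leaving out 12 paralogs and non-ribosomal matches gave 35.4% within 1 kb.

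No paired analysis was possible because the list merges both pulldowns and does not mark the replicate of a call, and leaving out a replicate was not possible for the same reason. Depth is unknown, and signal under the authors' threshold was not analysed here.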
